A study of Mus with 21 samples.

Results

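The non-clustered delta protocadherins are a family of cadherin-type adhesion molecules encoded by genes that stand singly in the genome. The 10 members were chosen by symbol (Pcdh1, Pcdh7, Pcdh8, Pcdh9, Pcdh10, Pcdh11x, Pcdh17, Pcdh18, Pcdh19 and Pcdh20). All 10 were found among the 55335 genes of the deposited count table and were among the 30552 genes tested. They were measured by poly(A) RNA sequencing of whole brains from female mouse embryos at E17.5, in a study of 2 genes that act on the cohesin ring in opposite ways: NIPBL is the loader that puts the ring on DNA, and WAPL opens it for release. The 21 libraries fell into 4 groups: 5 WT (Wapl +/+ and Nipbl +/+), 7 Wapl heterozygotes (Wapl delta/+ with Nipbl +/+), 3 Nipbl heterozygotes (Wapl +/+ with Nipbl +/delta) and 6 double heterozygotes (Wapl delta/+ with Nipbl +/delta). The Nipbl allele was a loss of function made by the Stra8-icre transgene in the sires' germ line, the Wapl allele was a germ line deletion made with E2a-Cre, and all embryos were of C57BL/6J background, so both losses affected every cell of the embryo. The labels do not say which embryos were littermates, and the genotype labels write the Wapl deletion either first or second, as delta/+ or +/delta.

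Protocadherins carry extracellular cadherin repeats that bind the same protein on a neighbouring cell, and the brain uses their combinations in axon growth, cell sorting and synapse formation. The delta-1 members (Pcdh1, Pcdh7, Pcdh9 and Pcdh11x) and the delta-2 members (Pcdh8, Pcdh10, Pcdh17, Pcdh18 and Pcdh19) differ in the number of repeats and in conserved motifs of the cytoplasmic tail. Several delta-2 proteins recruit the WAVE regulatory complex, which drives actin branching, through a motif of that tail. Pcdh20 is usually placed apart from both subgroups. Unlike the clustered alpha, beta and gamma protocadherins, whose genes lie side by side in linked clusters, the delta protocadherins are not arranged in a cluster.

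The targeted genes behaved as labelled. Nipbl was at 54.3% of the WT mean in Nipbl heterozygotes and 54.8% in double heterozygotes, and Wapl was at 46.7% in Wapl heterozygotes and 49.3% in double heterozygotes. Total counts were between 25682566 and 35818767 per library, and the lowest count of any member in any library was 221 (Pcdh20). The libraries also fell into 2 sets by the mitochondrial gene mt-Nd3, with at most 6 counts in 12 libraries and 52 or more in the other 9. All 3 Nipbl heterozygotes were in the low set, with 3 WT, 2 Wapl heterozygote and 4 double heterozygote libraries, and the labels do not say what separates the sets. In the 13 libraries with a Wapl deletion, the 6 of the low set are those whose genotype label writes the deletion first and the 7 of the high set those that write it second, so in these the set and the label order cannot be told apart. Neuron markers (6 genes) summed to between 4961 and 5638 CPM (counts per 1000000 of the scaled library total) across the 21 libraries and neural progenitor markers (7 genes) to between 865 and 1043 CPM, and none of these markers was at 0 in any library. In whole-brain RNA, fewer cells of a type and less RNA per cell cannot be told apart.

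**Figure D1:**
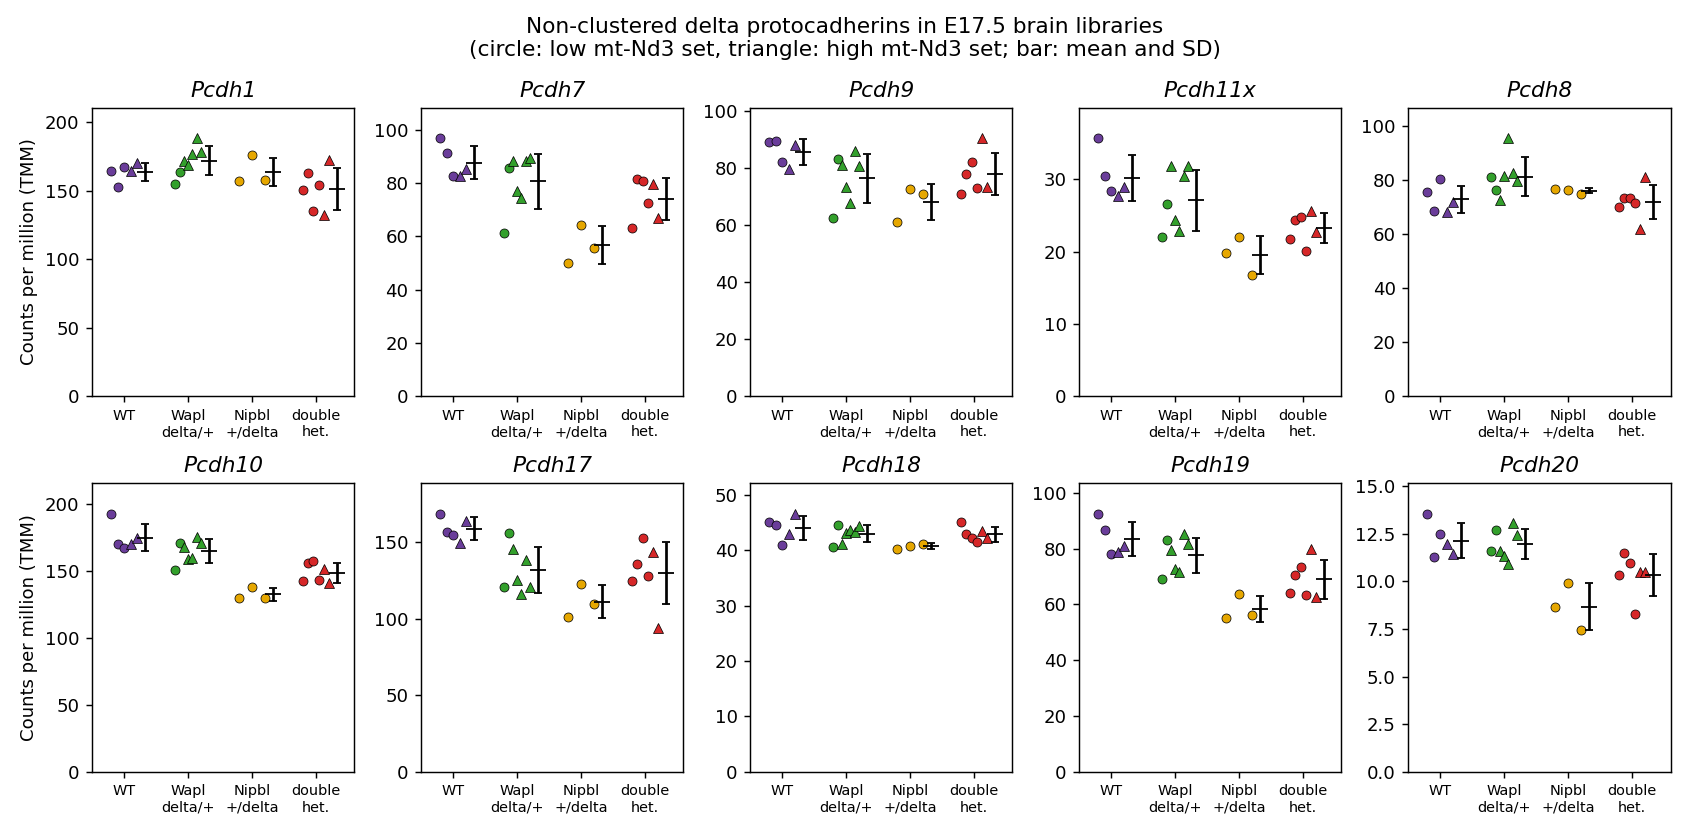
Level of each of the 10 members in CPM (linear axis from 0), 1 panel a gene, with 1 point for each of the 21 libraries in the 4 genotype groups (circles for the low mt-Nd3 set, triangles for the high set) and a bar for the group mean and SD. The 3 Nipbl +/delta libraries lie below all 5 WT libraries for Pcdh7, Pcdh9, Pcdh11x, Pcdh10, Pcdh17, Pcdh19 and Pcdh20, and the double heterozygotes lie between them on average.

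The comparison of Nipbl heterozygotes with WT asked what the loss of 1 copy of the cohesin loader does to these genes. Of the 10 members, 7 were lower in Nipbl heterozygotes and 0 were higher at an adjusted p under 0.10 in edgeR's quasi-likelihood test, where 6.96% of all tested genes were lower. That share includes genes with far fewer counts than the members. In a fit of genes with at least 1 CPM in 3 libraries, 2256 of 17920 genes were lower, with 7 members among them. The 7 were Pcdh7, Pcdh9 and Pcdh11x of the delta-1 subgroup (3 of 4), Pcdh10, Pcdh17 and Pcdh19 of the delta-2 subgroup (3 of 5), and Pcdh20. For each of the 7, every Nipbl heterozygote library was below every WT library, which held for 6.9% of tested genes. The median log2 fold change of the 10 members was -0.45, beside -0.01 over all tested genes.

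Among the delta-1 members, Pcdh7, which binds protein phosphatase 1 through its tail, was at 96.7, 91.2, 82.5, 82.7 and 85.4 CPM in the 5 WT libraries and at 50.2, 64.4 and 55.7 CPM in the 3 Nipbl heterozygotes. The ranges were far apart, with Nipbl heterozygotes at 64.5% of WT (log2 -0.63, SE 0.07, adjusted p = 3.94e-05). Pcdh11x, an X-linked member, had WT levels of 35.7, 30.4, 28.4, 27.7 and 29.0 CPM and Nipbl heterozygote levels of 19.9, 22.0 and 16.8 CPM. It was at 64.6% of WT (log2 -0.63, SE 0.08, adjusted p = 1.85e-04), the same size of change as Pcdh7. Pcdh9, an abundant member of the developing cortex, was at 89.0, 89.4, 82.1, 79.4 and 88.0 CPM in WT and at 61.0, 72.7 and 70.6 CPM in Nipbl heterozygotes. Its change was the smallest of the 7 (79.2% of WT, log2 -0.34, SE 0.06, adjusted p = 0.00105). Pcdh1, which is also found in epithelia outside the brain, was at 164, 153, 167, 164 and 171 CPM in WT and at 157, 176 and 158 CPM in Nipbl heterozygotes. These ranges overlapped, and the 95% interval of its log2 fold change ran from -0.09 to 0.08 (adjusted p = 0.962).

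Among the delta-2 members, Pcdh17, which acts in the growth of axon bundles and at synapses of the basal ganglia, was at 168, 157, 155, 149 and 164 CPM in WT and at 101, 123 and 109 CPM in Nipbl heterozygotes. It was at 69.8% of WT (log2 -0.52, SE 0.05, adjusted p = 3.82e-05) and ranked 11 of all tested genes by p. Pcdh19, the X-linked gene that is mutated in an epilepsy of girls, was at 92.4, 86.8, 78.0, 78.8 and 80.8 CPM in WT and at 55.1, 63.7 and 56.4 CPM in Nipbl heterozygotes. The change matched that of Pcdh17 in size (69.8% of WT, log2 -0.52, SE 0.06, adjusted p = 5.66e-05). Pcdh10, which guides thalamocortical and striatal axons, was at 193, 170, 167, 170 and 174 CPM in WT and at 130, 138 and 130 CPM in Nipbl heterozygotes. Its change was smaller but had the least error of the 7 (75.5% of WT, log2 -0.41, SE 0.04, adjusted p = 4.49e-05).

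The other 2 delta-2 members did not pass the test. Pcdh8, known as arcadlin and induced by neuronal activity, was at 75.7, 68.7, 80.4, 68.2 and 72.0 CPM in WT and at 76.9, 76.6 and 75.2 CPM in Nipbl heterozygotes. All 3 heterozygotes were inside the WT range, and the 95% interval of the log2 fold change was -0.04 to 0.15 (adjusted p = 0.597). Pcdh18 was at 45.1, 44.6, 40.9, 42.9 and 46.6 CPM in WT and at 40.2, 40.8 and 41.2 CPM in Nipbl heterozygotes. Of its 3 heterozygotes, 2 were below every WT library and 1 was inside the WT range (92.2% of WT, log2 -0.12, SE 0.05, adjusted p = 0.137).

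Pcdh20, the member outside both subgroups and the least counted, was at 13.5, 11.3, 12.5, 11.9 and 11.4 CPM in WT and at 8.65, 9.91 and 7.44 CPM in Nipbl heterozygotes. It was at 71.3% of WT (log2 -0.49, SE 0.09, adjusted p = 0.0022), and its heterozygotes varied more among themselves than those of any other member (CV 14.3%). All 7 calls stood within the low mt-Nd3 set alone (3 WT and 3 Nipbl heterozygotes), where the log2 fold changes were between -0.69 (Pcdh11x) and -0.36 (Pcdh9).

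**Figure D2:**
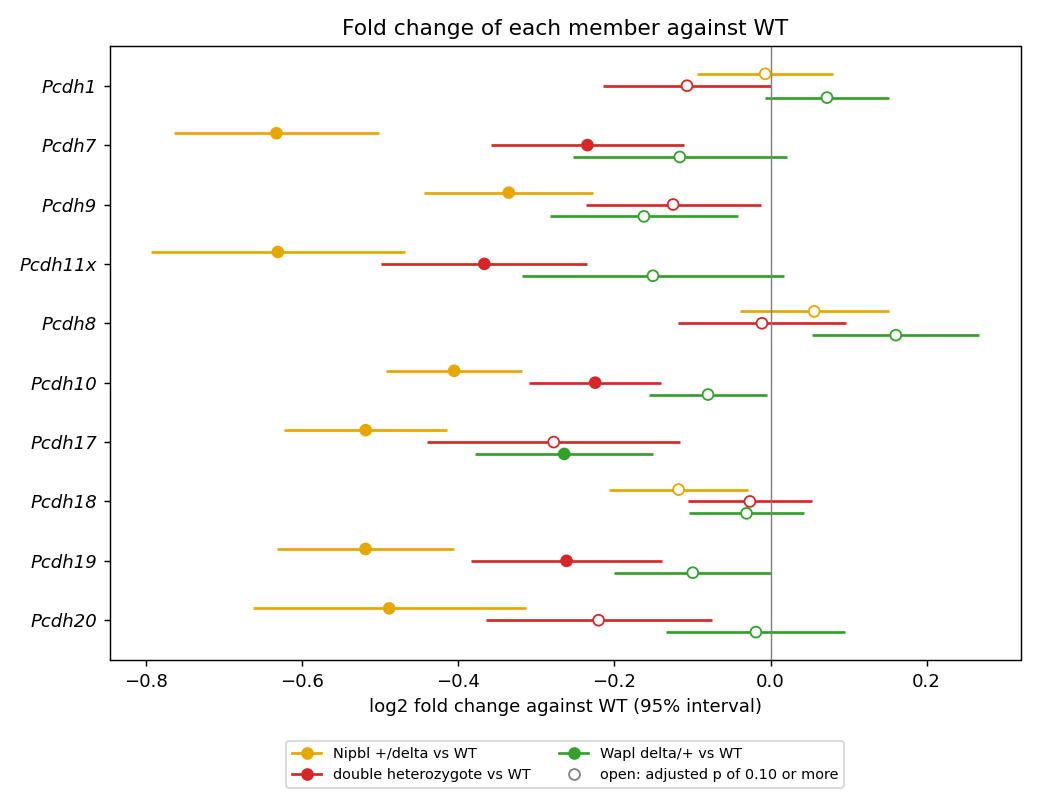
Log2 fold change of each member against WT with its 95% interval, from 3 separate fits that share the 5 WT libraries. Filled points passed an adjusted p of 0.10: 7 members in Nipbl +/delta, 4 in double heterozygotes and 1 in Wapl delta/+ brain, all below 0.

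The comparison of Wapl heterozygotes with WT asked what less removal of cohesin does. Pcdh17 was the 1 member called, in a comparison where 1.45% of tested genes were lower. Its 7 Wapl heterozygotes were between 116 and 156 CPM (median 125), all below the WT mean of 159 CPM and all but 1 below the lowest WT library (83.3% of WT, log2 -0.26, SE 0.06, adjusted p = 0.0445). The call was lost without WT replicate 1, 2 or 5, in either mt-Nd3 set alone, with all 4 groups in 1 fit and with only those 2 Wapl heterozygotes whose label writes the deletion first. In that last fit Pcdh11x was the 1 member called, lower than WT with an adjusted p of 0.0853. In no member was every Wapl heterozygote below every WT library, which held for 0.471% of tested genes.

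The other members that were lower in Nipbl heterozygotes had small changes in Wapl heterozygotes, none past the threshold: log2 -0.16 for Pcdh9 (adjusted p = 0.201), -0.15 for Pcdh11x (0.412), -0.12 for Pcdh7 (0.445), -0.10 for Pcdh19 (0.36), -0.08 for Pcdh10 (0.323) and -0.02 for Pcdh20 (0.917). These averages hid a wide spread between embryos. Wapl heterozygote replicates 1, 4 and 5 had 7, 6 and 7 of the 10 members below every WT library, and the other 4 replicates had 1 member each. Pcdh7, for example, was at 61.4, 76.9 and 74.5 CPM in those 3 replicates and between 85.8 and 89.5 CPM in the other 4, which lay inside the WT range of 82.5 to 96.7 CPM. Replicate 1 was of the low mt-Nd3 set and replicates 4 and 5 of the high set, and replicate 5 had the lowest total count of all libraries (25682566). The share of all tested genes below every WT library was not counted for single libraries. These counts of members thus cannot be told from a wider shift of those libraries. Pcdh8 went the other way, with 72.9 to 95.5 CPM (median 81.1) beside 68.2 to 80.4 CPM in WT. Its log2 fold change was 0.16 (SE 0.05) and did not pass the edgeR test (adjusted p = 0.158).

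**Figure D3:**
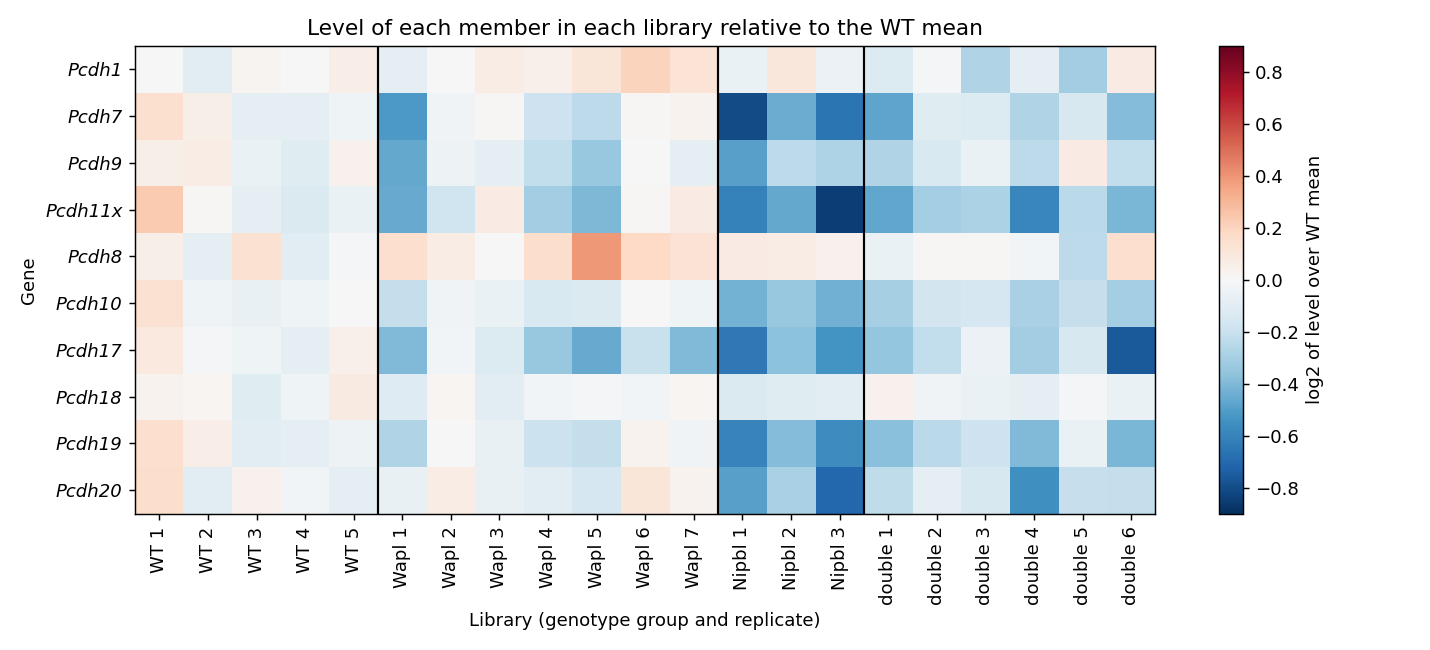
Level of each member in each of the 21 libraries as the log2 of its ratio to the WT mean (blue below, red above, scale at the right), with lines between the genotype groups. The 3 Nipbl libraries are low in the same 7 members, as are Wapl libraries 1, 4 and 5 for most of them, while Pcdh1, Pcdh8 and Pcdh18 stay near or above the WT mean in most libraries.

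In double heterozygotes the 7 members lay between Nipbl heterozygotes and WT on average. Against WT, 4 members were lower (Pcdh7, Pcdh10, Pcdh11x and Pcdh19) and 0 higher, where 2.46% of tested genes were lower. In the fit of genes with at least 1 CPM in 3 libraries, 944 of 17920 genes were lower, with 5 members among them. Every double heterozygote library was below every WT library for Pcdh7, Pcdh10 and Pcdh11x, which held for 2.29% of tested genes. The comparison shares its WT libraries with the 2 above.

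Pcdh11x had the largest change of the 10 (20.1 to 25.6 CPM, median 23.6; 77.5% of WT, log2 -0.37, SE 0.07, adjusted p = 0.00708). Pcdh10 ranged from 141 to 157 CPM with a median of 147 CPM (85.6% of WT, log2 -0.22, SE 0.04, adjusted p = 0.00968). Pcdh19 ranged from 62.6 to 79.9 CPM with a median of 67.4 CPM, so that 1 library reached into the WT range (83.4% of WT, log2 -0.26, SE 0.06, adjusted p = 0.0361). Pcdh7 ranged from 63.0 to 81.4 CPM with a median of 76.1 CPM (85.0% of WT, log2 -0.23, SE 0.06, adjusted p = 0.0649). That call for Pcdh7 was lost without WT replicate 1, 2 or 4 or double heterozygote replicate 1, 4 or 6.

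Pcdh17 was the most variable member in double heterozygotes, from 93.9 to 153 CPM (median 132 CPM, CV 15.7%), and did not pass the threshold (log2 -0.28, SE 0.08, adjusted p = 0.101), although it did in 10 of 22 alternatives, DESeq2 among them. Pcdh20, at 8.27 to 11.5 CPM (median 10.5 CPM), had a log2 fold change of -0.22 (SE 0.07, adjusted p = 0.158), and Pcdh9, at 70.9 to 90.2 CPM (median 75.7 CPM), of -0.12 (SE 0.06, adjusted p = 0.34). Pcdh1 (log2 -0.11), Pcdh18 (-0.03) and Pcdh8 (-0.01) did not pass the test either. The count of 4 fell to 2 (Pcdh10 and Pcdh11x) without WT replicate 1, the WT library with the highest Pcdh7, Pcdh10, Pcdh11x, Pcdh17, Pcdh19 and Pcdh20, and rose to 7 without double heterozygote replicate 5. It was 6 by DESeq2, 6 within the low mt-Nd3 set and 6 with only the double heterozygotes whose label writes the deletion first. Of tested genes, 3.28% were called in either direction where 4 members were. That share was 1.58% without WT replicate 1 and 8.20% without double heterozygote replicate 5. By DESeq2 it was 4.85%, within the low mt-Nd3 set 2.20% and with the deletion written first 5.94%.

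The direct comparison of double with Nipbl heterozygotes asked whether losing 1 Wapl copy moves these genes back. No member was called by edgeR's quasi-likelihood test or by DESeq2, in a comparison where edgeR called 2 of all tested genes (0.00655%) and DESeq2 called 5. At an unadjusted p under 0.05 there were 6 members and 1259 genes in all by edgeR. The fold change was positive for 8 of 10 members, with the largest value for Pcdh7 (log2 0.39, SE 0.09, 95% interval 0.21 to 0.56, unadjusted p = 5.88e-04, adjusted p = 0.971) and a median of 0.21 over the members beside 0.00 over all tested genes. Every double heterozygote was above every Nipbl heterozygote for Pcdh10 (141 to 157 against 130 to 138 CPM) and Pcdh18 (41.5 to 45.2 against 40.2 to 41.2 CPM), which held for 0.897% of tested genes. For Pcdh7, Pcdh9, Pcdh11x and Pcdh19 all 6 double heterozygotes were above the Nipbl heterozygote mean, with ranges that overlapped.

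In the same way, 0 members were called between double and Wapl heterozygotes by edgeR (1.02% of tested genes called), with 6 members and 3037 genes in all at an unadjusted p under 0.05, and DESeq2 called Pcdh10. The fold changes ran from -0.22 on the log2 scale (Pcdh11x, SE 0.09, adjusted p = 0.38) to 0.04 (Pcdh9, adjusted p = 0.91).

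Between the single heterozygotes, 5 members were lower in Nipbl than in Wapl heterozygotes, where 0.887% of tested genes were lower. They were Pcdh7 (log2 -0.51, SE 0.10, adjusted p = 0.0266), Pcdh11x (-0.47, SE 0.12, 0.0867), Pcdh20 (-0.46, SE 0.09, 0.0195), Pcdh19 (-0.41, SE 0.07, 0.00762) and Pcdh10 (-0.32, SE 0.05, 0.0041). All but Pcdh7 had every Nipbl library below every Wapl library, which held for 1.94% of tested genes. Pcdh17, lower than WT in both single heterozygotes, differed between them by log2 -0.25 (SE 0.08), which did not pass the test (adjusted p = 0.269). No member was called with a term for the mt-Nd3 set or within the low set, where 2 Wapl heterozygotes remained and the log2 fold changes of the 5 were -0.37 (Pcdh7), -0.31 (Pcdh11x), -0.48 (Pcdh20), -0.38 (Pcdh19) and -0.28 (Pcdh10), with adjusted p between 0.71 and 0.955. Of the 5, 2 were called without Nipbl heterozygote replicate 1 and 1 without replicate 3. The share of all tested genes called in either direction fell as well, from 1.16% to 0.419% without replicate 1 and 0.226% without replicate 3. It was 0.108% with the mt-Nd3 term and 0.0262% within the low set.

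The interaction term compares the effect of the Nipbl allele in Wapl heterozygotes with its effect in Wapl +/+ embryos. By edgeR's quasi-likelihood test 0 members and 0% of tested genes were called, with 9 members and 4221 genes at an unadjusted p under 0.05. Of the 10 members, 8 had a positive term. Pcdh8 (log2 -0.26, SE 0.09, unadjusted p = 0.00683, adjusted p = 0.205) and Pcdh1 (-0.21, SE 0.09, unadjusted p = 0.021, adjusted p = 0.268) had a negative one. The term was largest for Pcdh7 (log2 0.48, SE 0.12, unadjusted p = 6.11e-04, adjusted p = 0.2) and Pcdh17 (0.47, SE 0.13, unadjusted p = 0.00124, adjusted p = 0.2), where a positive value means a smaller loss in the presence of the Wapl allele. DESeq2 called it positive for 6 members (Pcdh7, Pcdh9, Pcdh10, Pcdh11x, Pcdh17 and Pcdh19), in a test where 1.54% of genes were positive. The call thus turned on the tool. It also turned on single libraries in edgeR, with 5 members called without double heterozygote replicate 6, of which Pcdh7, Pcdh10, Pcdh17 and Pcdh19 were positive and Pcdh8 negative (3.09% of tested genes called), and 2, both positive, without Wapl heterozygote replicate 2 (Pcdh7 and Pcdh17; 0.828% of tested genes called).

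The members that moved with the Nipbl genotype also varied together inside the groups. After subtraction of each group's mean from the log2 CPM, the 21 pairs among the 7 called members had a median Pearson r of 0.71 (0.32 to 0.89) over the 21 libraries, and the 24 pairs that involve Pcdh1, Pcdh8 or Pcdh18 a median of 0.10 (-0.54 to 0.52). All pairs share the libraries and their depth, and the values are a description. Over all 21 libraries, without that subtraction, the gene most like Pcdh10 among 11464 genes averaging 10 CPM or more was Pcdh19 (r = 0.96). The closest to Pcdh7 was B3galt2 (r = 0.96), to Pcdh9 Chl1 (0.96), to Pcdh11x Vstm2a (0.97), to Pcdh17 Caln1 (0.96), to Pcdh19 Syt4 (0.96) and to Pcdh20 Il1rap (0.90).

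The members differ greatly in the length of genome they span in the RefSeq annotation of the mouse build used for the counts (GRCm38.p6). Pcdh9 (chr14:93013700-93892834) spans 879 kb, Pcdh11x (chrX:120290238-120910622) 620 kb and Pcdh7 (chr5:57716145-58133236) 417 kb. Pcdh19 (chrX:133582860-133689044) spans 106 kb, Pcdh17 (chr14:84443563-84537565) 94.0 kb and Pcdh10 (chr3:45378398-45434579) 56.2 kb. The shorter ones are Pcdh1 (chr18:38185914-38212048) with 26.1 kb, Pcdh18 (chr3:49743291-49757383) with 14.1 kb, Pcdh20 (chr14:88464743-88471396) with 6.65 kb and Pcdh8 (chr14:79766772-79771312) with 4.54 kb.

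All 6 members of 50 kb or more were lower in Nipbl heterozygotes, and of the 4 shorter ones only Pcdh20 was. The same direction was seen over the 12524 genes averaging 5 CPM or more whose span was known (93.5% of the genes at that level). Of genes of 200 kb or more, 48.4% were lower in Nipbl heterozygotes and 2.04% higher. That share was 21.3% from 50 to 200 kb, 7.74% from 10 to 50 kb and 5.71% under 10 kb, where 10.3% were higher. Spearman's rho between span and log2 fold change was -0.62 over the 10 members and -0.31 over those genes, a description across genes, which are not independent replicates. All 7 called members and Pcdh18 were below the lower quartile of the genes of like span, Pcdh9 by the least of the 7.

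**Figure D4:**
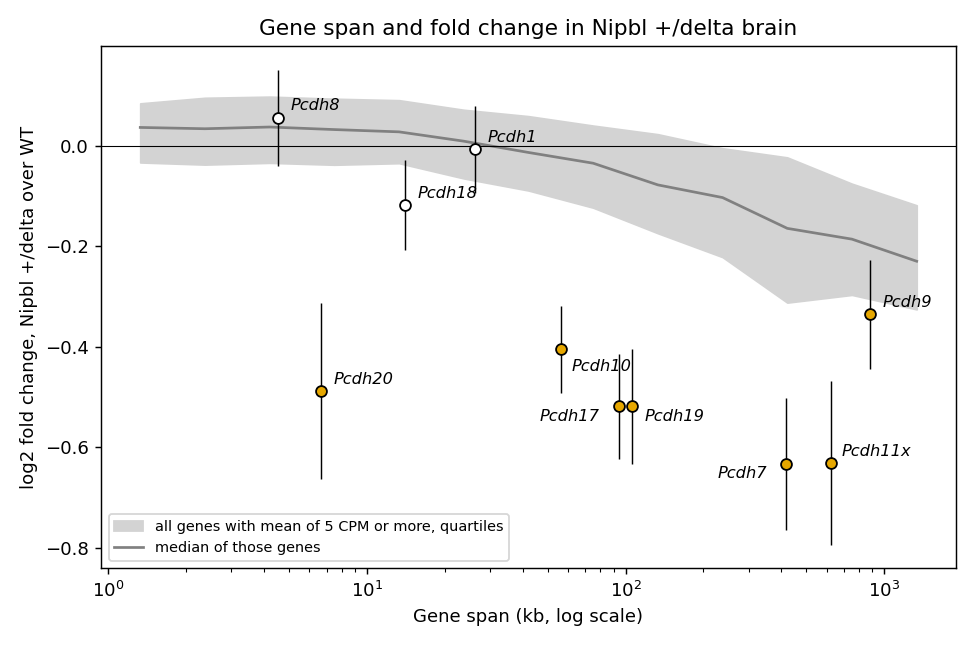
Gene span in kb (log axis) against the log2 fold change of Nipbl +/delta over WT, with 95% intervals, for the 10 members (filled where called). The grey line and band are the median and quartiles of all genes averaging 5 CPM or more in bins of span, and the 6 members of 50 kb or more lie below that band.

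Most members lie in gene-poor stretches. Within 1 Mb, 2 or 3 other tested genes of known position flank each of Pcdh7, Pcdh9, Pcdh10, Pcdh11x, Pcdh17, Pcdh18 and Pcdh20, where 1 of 2 was called in Nipbl heterozygotes near each of Pcdh7, Pcdh10, Pcdh11x and Pcdh17 and none near Pcdh9, Pcdh18 or Pcdh20. Over all tested genes 11.2% were called in that comparison. No gene near Pcdh8 was called, and near Pcdh19 1 of 22 was. Lower calls near the others were the long non-coding RNAs 4932441J04Rik, which overlaps Pcdh7 (log2 -0.88, adjusted p = 9.95e-05), 1700027H10Rik, which overlaps Pcdh10 (-0.39, 0.0143), and 9630013A20Rik, which overlaps Pcdh17 (-1.81, 0.0457, at most 16 counts). The coding gene Pabpc5, 360 kb from Pcdh11x, was also lower (log2 -1.21, adjusted p = 0.00804), as was the non-coding B230119M05Rik, 996 kb from Pcdh19 (-0.79, 0.0426). No strand setting of the counting is given in the sources used here, so reads of overlapping genes cannot be told apart. Pcdh1 is the exception in location. It lies beside the clustered protocadherins, of which 13 of 13 tested alpha genes and 21 of 22 beta genes within 1 Mb were lower in Nipbl heterozygotes, as was no gamma gene of 22, and Pcdh1 itself did not pass the test.

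The partner lists are read against the same share of 11.2% of all genes called in either direction (6.96% of all genes lower). Of the 10 WAVE complex genes, 1 was lower in Nipbl heterozygotes, Nckap1 (log2 -0.13, adjusted p = 0.0357), whose protein is the subunit that Pcdh10 contacts. The median over the list was -0.05, and 0 were called in Wapl or double heterozygotes. Of 12 other binding or signalling partners, Mdm2, the ubiquitin ligase of PSD-95 (0.14, adjusted p = 0.0536), and Ppp1cc, a protein phosphatase 1 catalytic subunit (0.11, 0.0831), were higher in Nipbl heterozygotes, and Ppp1cb, another such subunit, was lower (-0.14, 0.0785), 3 of 12 in all. In the other groups 1 partner was called in each, Map2k3 in Wapl heterozygotes (0.18, adjusted p = 0.0849) and Ppp1cc in double heterozygotes (0.13, 0.0735).

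Other non-clustered cadherins went both ways. Of 16 such genes, 5 were lower and 5 higher in Nipbl heterozygotes. The 4 with the largest changes were the giant atypical cadherins Fat2 (log2 -0.80, adjusted p = 1.44e-04) and Fat1 (-0.48, 2.76e-04), the planar polarity cadherin Celsr1 (0.43, 0.00327) and the calsyntenin Clstn2 (-0.30, 0.00263). Fat1 and Fat2 were also lower in Wapl heterozygotes (-0.36 and -0.51), and Fat1, Fat2, Clstn2 and Pcdh15 in double heterozygotes, where 0 of the 16 were higher.

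Some marker lists moved with the Nipbl genotype. Of 5 oligodendrocyte lineage markers, 3 were lower in Nipbl heterozygotes (Pdgfra, Sox10 and Olig1) and 4 in double heterozygotes, and their summed level was 199 to 220 CPM in WT, 178 to 237 CPM in Wapl heterozygotes, 153 to 188 CPM in Nipbl heterozygotes and 155 to 187 CPM in double heterozygotes. Of 5 microglia markers, 3 were lower in Nipbl heterozygotes (P2ry12, Cx3cr1 and Csf1r), with sums of 48.6 to 54.9 CPM beside 58.7 to 70.4 CPM in WT. Of 7 neural progenitor markers, 3 were higher (Sox2, Nes and Eomes) and 1 lower (Fabp7), and of 6 neuron markers 1 was lower (Snap25), while the sums of both lists overlapped between the groups. Of 8 midbrain and hindbrain markers, 2 were higher in Nipbl heterozygotes. In double heterozygotes 3 of those 8 (En1, En2 and Hoxb3) were higher, with a median log2 fold change of 0.26 over the list. Of 6 meningeal fibroblast markers 1 was higher in Nipbl heterozygotes, 3 in Wapl heterozygotes and 0 in double heterozygotes. Of 6 endothelial markers 1 was higher in each single heterozygote. No erythroid (5), choroid plexus (6) or pituitary (6) marker was called in Nipbl heterozygotes. In Wapl heterozygotes Gh of the pituitary list was lower (log2 -7.34, SE 1.76, adjusted p = 0.0574). The pituitary sum reached 89.0 CPM in a WT library and 39.9 CPM in a double heterozygote beside group medians of at most 2.27 CPM. Gh and Prl were each at 0 in 14 of the 21 libraries. None of the oligodendrocyte, microglia, progenitor or neuron markers was at 0 in any library. The part of these cell types in the changes of the protocadherins was not tested.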

How the data were processed

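Poly(A) RNA from whole brains was sequenced as 101-base paired reads with an Illumina kit. Per the labels, the authors used cutadapt 2.4, STAR 2.5.3a, featureCounts of Subread 1.6.4 and MultiQC 1.9 on mm10 (GRCm38.p6), and deposited raw counts per gene, with no normalization. The gene annotation and strand setting are not given in the sources used here. The study set 1 further Nipbl library aside for low yield, and it was not analysed here.

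Counts were analysed with edgeR 4.0.16 in R 4.3.3 after TMM scaling, and levels are CPM of the scaled library. Genes whose normalized counts came to 10 or more over the 21 libraries together were tested by the quasi-likelihood F test, each pair of groups in a fit of its own and the interaction over all libraries, with Benjamini-Hochberg adjustment over all genes tested and calls at an adjusted p under 0.10. SEs follow from the F statistic. The 95% intervals apply a normal quantile to those SEs, so they are narrower than the test itself implies. For Pcdh10 in Wapl heterozygotes against WT the interval was log2 -0.156 to -0.00426, at an unadjusted p of 0.0515 in the quasi-likelihood test. DESeq2 1.42.0, other scalings and filters, 1 fit for all groups, a replicate block, the mt-Nd3 sets (divided at 30 counts), the Wapl label order and leaving out each library were alternatives. No libraries were identical in their counts (49 pairs within groups), and 0 columns of samples were left unused.

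The members and gene lists were chosen with earlier results of these data known. All 10 members were named, with the targeted genes, up to 4 called genes with the largest changes from each partner list, called markers, called neighbours within 1 Mb and the gene most correlated with each called member. Spans came from a RefSeq table that matched by symbol. P-values weigh the difference between groups against the spread between embryos within them. Embryos were treated as independent, although the labels do not say which were littermates.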

Additional observations from a re-analysis of the deposited data

Results flagged for a closer look

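In 30 groups of 5, 6 or 7 libraries (10 members in 3 genotypes), Dixon's test for a library far from the others of its group marked 3, where chance marks about 1 group in 20. Pcdh8 was at 95.5 CPM in Wapl heterozygote replicate 5. Pcdh10 was at 193 CPM in WT replicate 1, the library whose removal took the members called in double heterozygotes from 4 to 2. Pcdh20 was at 8.27 CPM in double heterozygote replicate 4.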

How the results depend on the processing

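The 7 members lower in Nipbl heterozygotes were called under each alternative run, and leaving out 1 library gave 7 to 8 calls, the latter with Pcdh18 added. The share of all tested genes called in these fits ran from 5.43% (all 4 groups in 1 fit) to 22.7% (at least 1 CPM in 3 libraries). The other counts moved. Against WT, Wapl heterozygotes had 2 members called by DESeq2 (Pcdh17, and Pcdh8 higher), 0 with all 4 groups in 1 fit, 0 in the low and 0 in the high mt-Nd3 set, 1 with the deletion written first (Pcdh11x, in place of Pcdh17), and 0 to 2 when 1 library was left out. Double heterozygotes had 0 in the high mt-Nd3 set, which holds 2 libraries of each group, 6 by DESeq2, 6 in the low set, 6 with the deletion written first, and 2 to 7 when 1 library was left out. The share of tested genes was 0.00327% in the high set, 4.85% by DESeq2, 2.20% in the low set and 5.94% with the deletion written first. Without 1 library it was 1.49% to 8.20%. Between double and Wapl heterozygotes, DESeq2 called 1, the fit of all 4 groups 2, and leaving out 1 library 0 to 1. Those fits called 2.05%, 1.89% and 0.534% to 1.47% of tested genes. Between the single heterozygotes, 0 were called with the mt-Nd3 term, 0 in the low set, which is the same fit as that with labels that write the Wapl deletion first (0), and 1 to 5 when 1 library was left out. The interaction had 6 calls by DESeq2 and 0 to 5 when 1 library was left out, and double against Nipbl heterozygotes 0 throughout those. For the interaction the shares of tested genes were 2.60% by DESeq2 and 0% to 3.09% without 1 library. Between double and Nipbl heterozygotes they were 0.0164% and 0.00327% to 0.00655%. The high mt-Nd3 set holds no Nipbl heterozygote, so it was not run where those are needed. Beyond fewer libraries in these subsets, the cause was not tested.

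Replicate numbers gave no general pairing of the samples. Of 25 same-numbered pairs, 7 had a correlation of deviations over 0.1, and 3 of 12 libraries correlated best with their own number. The median was 0.02 over same-numbered pairs and 0.005 over the others. The highest values were among the mutant libraries numbered 1: 0.37 (Wapl and Nipbl), 0.30 (Wapl and double) and 0.23 (Nipbl and double heterozygotes). Whether some same-numbered libraries share a litter or batch was not tested. With the replicate block, 3 members were called in Wapl heterozygotes against WT (Pcdh9, Pcdh11x and Pcdh17) and 3 between double and Nipbl heterozygotes (Pcdh7, Pcdh17 and Pcdh19), and the counts elsewhere were 7, 4, 0, 5 and 0.

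Among the fold changes of single members, the sign changed only for those given here, and none of these values was called. Pcdh1 in Nipbl heterozygotes against WT was at log2 0.0024 with DESeq2 and with its size factors in edgeR, 0.0029 with no filter, 0.00045 with the stricter filter, 0.023 with all groups, 0.013 with the block, 0.014 with the mt-Nd3 term and in the low set, and -0.064 to 0.030 without 1 library. Against Wapl heterozygotes it was 0.00055 with the block, 0.038 with the mt-Nd3 term and 0.040 in the low set and with the deletion written first. In Wapl heterozygotes against WT, Pcdh1 was at -0.015 in the low set and -0.039 with the deletion written first, and Pcdh20 at 0.024 in the high set, 0.00018 with the deletion written first and -0.045 to 0.020 without 1 library. In double heterozygotes against WT, Pcdh8 was at 0.046 in the high set and -0.053 to 0.028 without 1 library. Between double and Wapl heterozygotes, Pcdh7 was at 0.018 in the low set and with the deletion written first, Pcdh18 at -0.0032 with all groups, -0.0073 in the high set and -0.013 to 0.013 without 1 library, Pcdh9 at -0.010 to 0.068 and Pcdh17 at -0.066 to 0.061.

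Over all genes the number called ranged from 1658 to 4788 around 3422 in Nipbl heterozygotes against WT, from 7 to 1991 around 677 in Wapl and from 1 to 2504 around 1001 in double heterozygotes. It ranged from 1 to 59 around 2 between double and Nipbl, from 24 to 626 around 311 between double and Wapl, from 8 to 647 around 354 between single heterozygotes, and from 0 to 945 around 0 for the interaction. Only 3 Nipbl heterozygote libraries, all of the low mt-Nd3 set, limit each comparison that uses them.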
